A study of Homo sapiens with 36 samples.

Results

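The effect of SHP1705 after 24 h was set against its effect after 8 h in cultured MDA-MB-231, an established line of triple-negative breast cancer. SHP1705 is a small molecule that stabilizes cryptochrome (CRY), a repressor protein of the circadian clock. Of the 36 polyA RNA-seq libraries of the series, 12 entered the comparison, chosen by their labels: 3 of cells given DMSO and 3 of cells given 10 µM SHP1705 for 8 h, and 3 of each for 24 h. DMSO is the solvent of the drug, and none of the 12 libraries received a proteasome inhibitor. The 8 h libraries belong to the set built around the inhibitor MG132 and the 24 h libraries to the set built around carfilzomib, so time and set changed together and cannot be told apart. Each effect is SHP1705 against the DMSO libraries of the same set, and the result is the effect at 24 h minus the effect at 8 h, on the log2 scale. GEO's text mentions 3 independent experiments, which could be the replicates of a set or the sets themselves. Each p-value therefore reflects only how far libraries of a group scatter, which may be technical.

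The clock is a feedback loop. CLOCK or NPAS2 pairs with BMAL1 (gene ARNTL), binds E-box sequences and switches on the period genes PER1, PER2 and PER3, the cryptochromes CRY1 and CRY2, the nuclear receptors NR1D1 and NR1D2 and the output factors DBP and TEF. PER and CRY proteins return to the nucleus and block that activator. NR1D1 and NR1D2 (REV-ERB) repress ARNTL, NPAS2 and NFIL3 through ROR elements, so loss of the receptors is known to release those genes. In breast cancer cells grown without a synchronizing cue the single cells keep their own phases, and a bulk library averages over them. The sample labels do not say whether these cells were given such a cue.

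The 12 libraries held 18900000 to 38700000 counts each, with 34500000 to 38700000 at 8 h and 18900000 to 27400000 at 24 h. Levels are CPM values, counts divided by the effective library size of their library. Of 54583 genes in the tables, 17793 passed the filter on low counts and were tested with edgeR's quasi-likelihood test, and a gene is called below when its Benjamini-Hochberg adjusted p is under 0.05. Markers of the line were high (VIM at 810 to 1387 CPM, CD44 at 636 to 1039). Replicates 2 and 3 of SHP1705 at 8 h stood apart by POSTN, a matrix gene of fibroblasts, at 29.9 and 31.2 CPM against 0.284 in replicate 1 and at most 0.269 in any DMSO library of that time. The 11 fibroblast markers summed to 17.98 to 56.6 CPM in SHP1705 and 18.4 to 19.3 CPM in DMSO libraries at 8 h, and to 19.3 to 22.1 and 17.6 to 18.2 CPM at 24 h, with 6 of the 11 (DCN, FAP, THY1, PDGFRA, CDKN2A and COL3A1) at no more than 1.10 CPM in any library. CDKN2A was also higher in those libraries, at 0.806 and 0.798 CPM against 0.103 in replicate 1 and at most 0.029 in DMSO, and COL3A1 was at its 1.10 CPM in replicate 3. Their part in the results was not tested. A further set of SHP1705 and DMSO libraries at 8 h, made beside carfilzomib, went against its labels and stayed out of the fit: PER3 read 8.07, 2.05 and 1.54 CPM in libraries labelled DMSO and 2.21, 9.45 and 7.86 CPM in libraries labelled SHP1705. With that set in place of the other, or with all 36 libraries in 1 fit, most of the calls below were lost or turned, and the values stand in the closing section.

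At 8 h, 583 genes were called, 295 higher and 288 lower with SHP1705 (1.66% and 1.62% of the genes tested). At 24 h, 1223 were called, 566 higher and 657 lower (3.18% and 3.69%). The effects differed between the times at 214 genes, of which 86 had a more positive effect at 24 h (0.483%) and 128 a more negative one (0.719%). At an unadjusted p under 0.05 the difference counted 2118 genes. All 15 genes with a called difference of 2-fold or more were more negative at 24 h. The order of these counts changed with the fit. The coefficient of variation within groups was 0.0455 in the 8 h set, 0.0672 in the 24 h set and 0.0567 when shared, and with each set fitted alone, which also changed the filter and the scaling, 1249 genes were called at 8 h and 722 at 24 h. Bulk RNA cannot tell fewer cells of a kind from less RNA per cell, and each level is a share of its library.

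The calls were sorted by time into 4 classes. Lasting genes were called in the same direction at both times and counted 184, with 115 higher and 69 lower. Early genes were called at 8 h only, with a called difference back towards 0, and counted 21. Late genes were called at 24 h only, with a called difference in the same direction, and counted 156, with 62 higher and 94 lower. In 1 gene, SEC61G, the called directions were opposite. Genes called at both times made up 31.7% of the calls at 8 h and 15.1% of the calls at 24 h. Of the 295 genes higher at 8 h, 271 (91.9%) had a positive effect at 24 h, and of the 288 lower ones 245 (85.1%) had a negative effect, beside 50.3% positive over all genes tested. The 8 h and 24 h effects share no library.

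Single libraries moved these counts. The 8 h count fell to 342, 211 and 388 without DMSO replicate 1, 2 or 3 of that time and to 308 and 233 without SHP1705 replicate 1 or 2. The 24 h count fell to 784 without DMSO replicate 1 of that time. The count of differences fell to 130, 132 and 136 without DMSO replicate 1, 2 or 3 at 8 h, to 137 and 140 without SHP1705 replicate 2 or 3 at 8 h, and to 132 without DMSO replicate 1 at 24 h. Without both SHP1705 libraries with POSTN, 57 genes were called at 8 h, 1113 at 24 h and 44 in the difference, and 43 of those 44 were among the 214. The lasting genes then counted 27, the early 2 and the late 36. That fit leaves 1 SHP1705 library at 8 h, which is assumed to vary like the other groups, so its p-values also rest on fewer libraries. Of 43 called differences of named genes, 24 did not pass in it, and their estimates were 0.819 to 1.12 times those with all libraries. A call lost in this fit is therefore not shown to be a smaller difference.

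**Figure D1:**
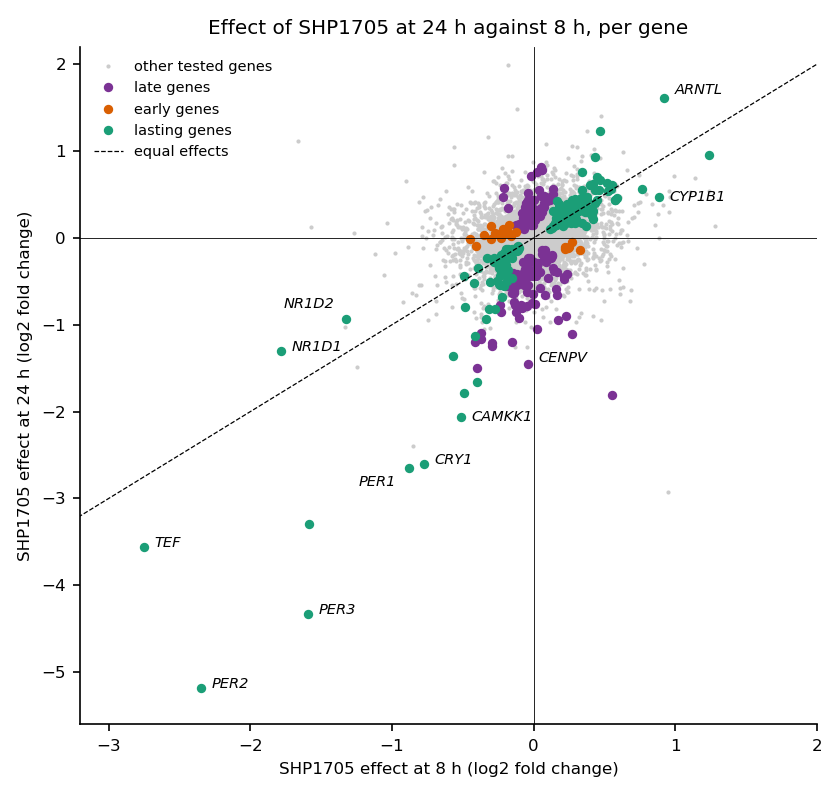
Effect of SHP1705 at 8 h (x axis) and 24 h (y axis) as log2 fold changes against DMSO, 1 point per tested gene with a mean of at least 1 CPM; POSTN lies outside the axes. Green, purple and orange points are the 184 lasting, 156 late and 21 early genes, and PER2, PER3, CRY1 and PER1 lie below the dashed line of equal effects while NR1D1 and NR1D2 lie above it.

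The period and cryptochrome genes were lower with SHP1705 at both times, and their effects against DMSO were more negative at 24 h. Of the 14 E-box clock genes, all of which passed the filter, 10 were lower and 0 higher at 8 h (1.62% of all tested genes were lower), 12 were lower at 24 h (3.69%), and 6 had a called difference, all negative (0.719%): PER1, PER2, PER3, CRY1, CRY2 and BHLHE41. Their median effect was -1.25 at 8 h and -2.19 at 24 h, beside 0.00 for all genes at both times. Without the libraries with POSTN, 6 were lower at 8 h, 12 at 24 h and 4 in the difference. The clock genes were known to move from earlier results of these data, so the new value is the difference between the times.

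PER3, a period protein gene, read 15.5, 14.6 and 14.9 CPM in the DMSO libraries at 8 h and 5.39, 4.72 and 4.82 CPM with SHP1705. At 24 h it read 21.4, 21.5 and 17.8 CPM in DMSO and 0.670, 0.957 and 1.35 CPM with SHP1705. The groups did not overlap at either time, as in 24.9% of all tested genes at 8 h and 22.7% at 24 h, and the fall was 3.01-fold at 8 h and 20.2-fold at 24 h. The effect went from -1.59 ± 0.11 (SE) to -4.33 ± 0.15, a difference of -2.74 ± 0.20 (adjusted p = 1.2e-10).

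CRY1, a cryptochrome gene, read 40.4, 36.3 and 33.6 CPM in DMSO and 22.3, 20.2 and 22.0 CPM with SHP1705 at 8 h. At 24 h it read 31.9, 33.4 and 35.4 CPM in DMSO and 5.32, 6.05 and 5.20 CPM with SHP1705. All DMSO libraries of both sets lay near one level, while the SHP1705 libraries of 24 h lay far below those of 8 h. The effect went from -0.77 ± 0.07 to -2.60 ± 0.08, and the difference was -1.83 ± 0.11 (adjusted p = 1.4e-12).

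CRY2, whose protein the series title names, read 8.49, 6.65 and 6.85 CPM in DMSO and 5.13, 5.72 and 4.82 CPM with SHP1705 at 8 h, and 13.7, 13.7 and 13.5 against 5.02, 3.29 and 3.54 CPM at 24 h. The groups did not overlap at either time, though the lowest DMSO and the highest SHP1705 library were close at 8 h. The effect was -0.49 ± 0.12 and then -1.78 ± 0.13, with a difference of -1.29 ± 0.18 (adjusted p = 9.9e-05). Its call at 8 h was lost (adjusted p 0.0801 to 0.197) on leaving out DMSO replicate 1 or SHP1705 replicate 1 or 3 of that time.

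PER1, a period gene that also answers quickly to outside signals, read 2.42, 2.13 and 2.81 CPM in DMSO and 1.37, 1.25 and 1.38 CPM with SHP1705 at 8 h, and 11.2, 12.3 and 10.0 against 1.82, 0.957 and 2.53 CPM at 24 h. Its effect went from -0.88 ± 0.21 to -2.65 ± 0.20 (difference -1.77 ± 0.30, adjusted p = 0.0010), and the call at 8 h was lost (adjusted p 0.0518 to 0.0966) without DMSO replicate 1 or 3 or SHP1705 replicate 1 or 2. The SHP1705 libraries of both times lay low, and the DMSO libraries of the 24 h set lay far above those of the 8 h set. PER2, the period gene, rested on few reads, with 235 counts in the DMSO and 48 in the SHP1705 libraries at 8 h and 349 and 11 at 24 h, and its difference was -2.84 ± 0.56 (adjusted p = 0.0049, and 0.113 without both libraries with POSTN).

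**Figure D2:**
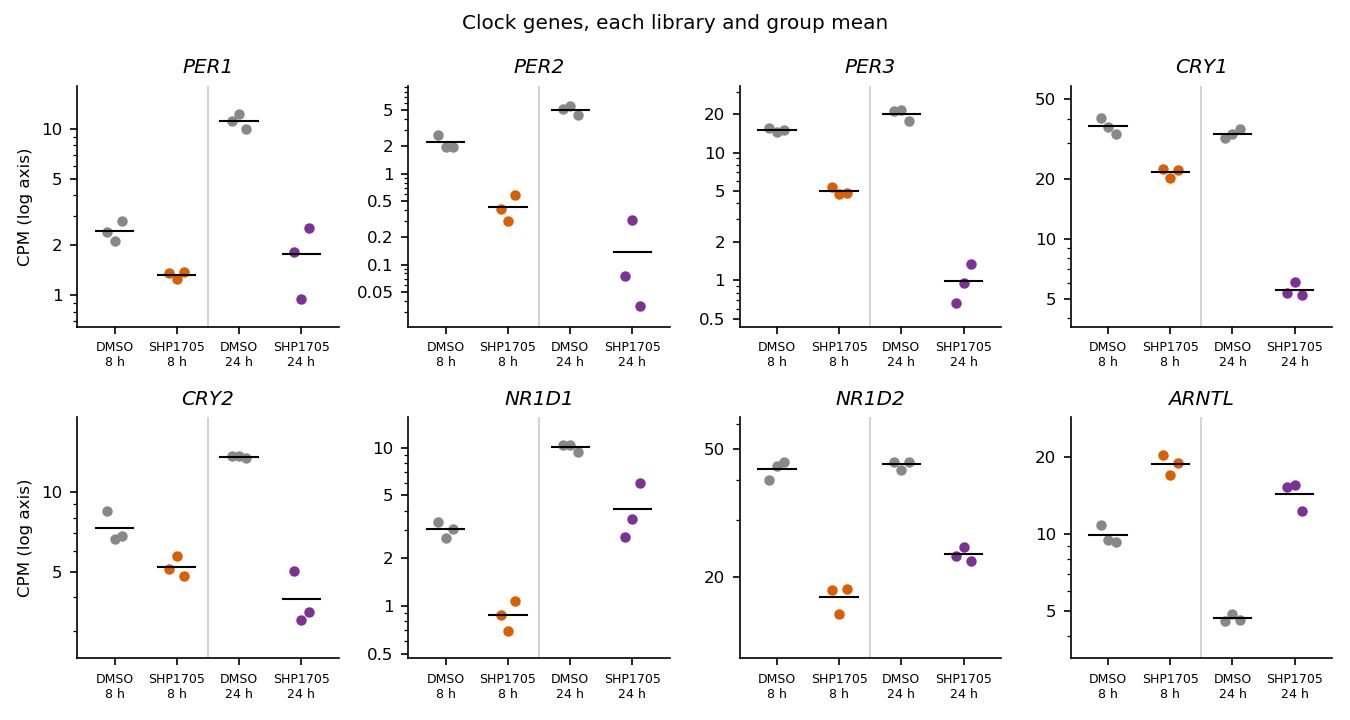
Level of 8 clock genes in CPM (log axis, own scale per gene) in the 3 libraries of each group, with the group mean as a bar; the grey line parts the 8 h set from the 24 h set. The groups of each time do not overlap in any of the 8 genes, CRY1 has DMSO libraries at one level in both sets, and PER1 and CRY2 have higher DMSO levels in the 24 h set.

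The REV-ERB genes did not follow the period genes. NR1D2 read 40.2, 44.4 and 45.5 CPM in DMSO and 18.2, 15.3 and 18.4 CPM with SHP1705 at 8 h, and 45.7, 43.0 and 45.7 against 23.3, 24.9 and 22.5 CPM at 24 h. The SHP1705 libraries of 8 h all lay below those of 24 h, and the effect was -1.32 ± 0.08 at 8 h and -0.93 ± 0.08 at 24 h, with a difference of 0.40 ± 0.11 that did not pass (adjusted p = 0.070, but 0.027 with only the 12 libraries in the fit). NR1D1 had effects of -1.78 ± 0.24 and -1.30 ± 0.19 and a difference of 0.49 ± 0.31 (adjusted p = 0.59), with SHP1705 libraries at 2.72, 3.52 and 5.9995 CPM at 24 h beside DMSO libraries at 9.39 to 10.4. Both receptors thus fell at both times, and neither difference passed the test.

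Among the output factors and repressors, TEF, a PAR-domain factor that binds D-boxes, fell 6.73-fold at 8 h and 11.8-fold at 24 h, and its difference was -0.81 ± 0.39 (adjusted p = 0.42). DBP, its close relative, had effects of -1.59 ± 0.33 and -3.30 ± 0.28, and its difference of -1.71 ± 0.46 did not pass (adjusted p = 0.059, but 0.030 with only the 12 libraries in the fit). BHLHE40 (DEC1), a repressor that binds E-boxes itself, fell by 0.25 ± 0.05 and 0.53 ± 0.05 on the log2 scale (difference -0.28 ± 0.08, adjusted p = 0.060), and its 8 h call was lost without DMSO replicate 1 (adjusted p = 0.0838). BHLHE41 (DEC2), its paralog, was called at 24 h only (-1.20 ± 0.14). Its difference of -0.79 ± 0.20 (adjusted p = 0.038) was lost on leaving out any of 9 of the 12 libraries in turn (adjusted p 0.0616 to 0.116), that is all but SHP1705 replicate 1 at 8 h, DMSO replicate 2 at 24 h and SHP1705 replicate 2 at 24 h. CIART, a repressor of the activator complex, fell at 24 h (-2.68 ± 0.56) on 70 DMSO and 13 SHP1705 counts. USP2 and HLF lay at or under 21 counts per group at both times, too few for this depth to show a difference.

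The E-box is the sequence these genes share by the known biology, and 3 promoters with it are shown, the 250 bases before the RefSeq start on GRCh38.p14, 5′ to 3′ on the gene's strand, with CACGTG in capitals. PER1 (chr17:8152405-8152654, minus strand) holds 1 copy beginning 173 bases before the start, TEF (chr22:41367205-41367454, plus strand) 1 copy at 195 bases, and CIART (chr1:150282304-150282553, plus strand) 3 copies at 129, 71 and 57 bases.
PER1: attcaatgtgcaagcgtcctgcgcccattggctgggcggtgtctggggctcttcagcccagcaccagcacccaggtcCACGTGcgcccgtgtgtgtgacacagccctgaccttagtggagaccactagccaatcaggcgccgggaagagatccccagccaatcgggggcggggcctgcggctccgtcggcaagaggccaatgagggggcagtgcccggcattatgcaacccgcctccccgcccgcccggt
TEF: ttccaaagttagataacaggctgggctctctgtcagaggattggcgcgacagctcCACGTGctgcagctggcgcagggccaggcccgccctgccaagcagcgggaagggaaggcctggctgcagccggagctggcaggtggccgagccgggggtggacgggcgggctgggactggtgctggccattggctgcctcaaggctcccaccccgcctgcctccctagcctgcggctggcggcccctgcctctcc
CIART: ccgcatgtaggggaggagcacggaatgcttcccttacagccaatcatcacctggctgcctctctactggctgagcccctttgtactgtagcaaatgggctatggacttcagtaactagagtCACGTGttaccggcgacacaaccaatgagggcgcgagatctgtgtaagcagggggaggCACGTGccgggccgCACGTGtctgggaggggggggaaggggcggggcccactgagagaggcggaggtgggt
CACGTG, which reads the same on both strands, lay in at least 1 listed window in 6 of the 14 E-box clock genes (42.9%) and in 1356 of the 12641 tested genes with a RefSeq promoter (10.7%). The other 8, PER2, PER3, CRY1, CRY2, NR1D1, DBP, HLF and USP2, had no copy in the windows listed for them, which says only that these letters are not within these bases. The related letters CACGTT, searched on both strands, lay in 4 of the 14 (28.6%), PER2, CRY1, CRY2 and NR1D1. They lay in 861 of the 12641 genes (6.81%), and these shares were not tested.

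Part of the opposite arm rose at both times. Of the 7 genes driven through ROR elements, 3 were higher at 8 h (1.66% of all tested genes) and the same 3 at 24 h (3.18%): ARNTL, NPAS2 and NFIL3. ARNTL, which encodes BMAL1, read 10.9, 9.45 and 9.36 CPM in DMSO and 20.3, 17.0 and 19.0 CPM with SHP1705 at 8 h, and 4.60, 4.89 and 4.64 against 15.3, 15.5 and 12.3 CPM at 24 h. The groups did not overlap at either time, and the DMSO libraries of the 24 h set lay below those of the 8 h set. Its effect went from 0.92 ± 0.09 to 1.61 ± 0.11, and it was the 1 gene of the list with a called difference (0.68 ± 0.15, adjusted p = 0.013, against 0.483% of all genes). That call was lost without DMSO replicate 1 or SHP1705 replicate 2 at 8 h or DMSO replicate 1 at 24 h (adjusted p 0.0512 to 0.0623) and without both libraries with POSTN. NPAS2, the partner of BMAL1 that can stand in for CLOCK, had effects of 0.34 ± 0.05 and 0.55 ± 0.05 (difference adjusted p = 0.19), and NFIL3, a repressor at D-boxes, 0.45 ± 0.09 and 0.70 ± 0.10 (adjusted p = 0.47). CLOCK (0.11 and 0.12) and ARNTL2 (-0.02 and -0.08) were not called at either time. RORA, a receptor that binds ROR elements, had effects of 0.04 and 0.80 and was not called either.

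A further list held regulators of the clock and other genes tied to it, and 13 of these passed the filter. At 8 h 0 were called, beside 1.66% of all tested genes higher and 1.62% lower. At 24 h 1, NOCT, was lower (-0.63), beside 3.69% of all. SIRT1, a deacetylase, had a called difference of -0.37 ± 0.10 (adjusted p = 0.049) that was lost on leaving out any 1 library except DMSO replicate 2 of either time (adjusted p 0.0589 to 0.162).

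The difference between the times came from both groups of libraries, to degrees that varied by gene. Between the sets, the CRY1 level differed by -0.13 on the log2 scale in DMSO and by -1.96 with SHP1705. For PER3 these values were 0.43 and -2.31, so there too most of the difference lay in the SHP1705 libraries. For PER1 they were 2.18 and 0.41, and for CRY2 0.89 and -0.40, so the DMSO level rose more than the SHP1705 level moved. Over the 128 genes with a negative difference the medians were 0.22 in DMSO and -0.35 with SHP1705, beside -0.09 for both in all genes with at least 5 CPM. Levels of different sets are set side by side here with no test.

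Of the 184 lasting genes, 21 had a called difference with a larger effect at 24 h and 2 had one with a smaller effect. The 21 include PER1, PER2, PER3, CRY1, CRY2 and ARNTL above, and the genes named next lie outside the clock. CAMKK1, a kinase that activates calmodulin-dependent kinases, read 5.20, 5.48 and 5.38 CPM in DMSO and 3.87, 3.67 and 3.71 CPM with SHP1705 at 8 h, and 10.1, 8.30 and 9.03 against 2.19, 2.64 and 1.77 CPM at 24 h. The groups were far apart at 24 h, and the difference was -1.54 ± 0.20 (adjusted p = 2.3e-05). Its 8 h call was lost (adjusted p 0.0584 to 0.0990) on leaving out any of the 6 libraries of that time. BLOC1S3, a subunit of the BLOC-1 complex of lysosome-related organelles, had effects of -0.40 ± 0.09 and -1.66 ± 0.10 (difference -1.26 ± 0.14, adjusted p = 8.6e-07), with its 8 h call lost without DMSO replicate 1 or SHP1705 replicate 1 or 2 (adjusted p 0.0569 to 0.0719). OSGIN1, an oxidative stress gene, fell by 0.57 ± 0.08 and 1.36 ± 0.09 (difference adjusted p = 0.00031). PPL, the desmosomal linker periplakin, fell by 0.42 ± 0.10 and 1.13 ± 0.09 (difference adjusted p = 0.0034, and 0.117 without both libraries with POSTN), and its 8 h call was lost without DMSO replicate 2 or 3 or SHP1705 replicate 1 or 2 (adjusted p 0.0617 to 0.0891).

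Both plasminogen activator genes were called, one as lasting and the other as late. PLAU, the urokinase activator, read 287, 280 and 288 CPM in DMSO and 357, 366 and 360 CPM with SHP1705 at 8 h and 159, 158 and 163 against 268, 277 and 268 CPM at 24 h. PLAT, the tissue-type activator, read 183, 177 and 180 against 178, 190 and 181 CPM at 8 h and 232, 222 and 243 against 403, 401 and 380 CPM at 24 h. PLAU was higher at both times, without overlap, while the PLAT groups overlapped at 8 h and stood apart at 24 h. The effects were 0.34 ± 0.03 and 0.76 ± 0.04 for PLAU (difference 0.42 ± 0.05, adjusted p = 6.8e-06) and 0.03 ± 0.05 and 0.76 ± 0.05 for PLAT (0.74 ± 0.06, adjusted p = 7.5e-09). Both differences were called in each of the fits that left out 1 library, and these genes were picked from the class lists after their values were seen.

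In 161 of the 184 lasting genes the difference was not called, among them DBP and BHLHE40 above. Of 4 further ones, CCN2, a matrix signalling gene, fell by 0.42 ± 0.05 and 0.51 ± 0.06. NEDD9, a focal adhesion scaffold, had effects of 0.76 ± 0.07 and 0.56 ± 0.07, PDE7B, a cAMP phosphodiesterase, 0.59 ± 0.08 and 0.46 ± 0.08, and CCNG2, an unconventional cyclin, 0.52 ± 0.07 and 0.63 ± 0.07. For these 4 the adjusted p of the difference was 0.42 to 0.75, which does not show that the effects were equal. CYP1B1, a cytochrome P450 induced by the aryl hydrocarbon receptor, went the other way from most, with DMSO at 211, 192 and 217 and SHP1705 at 373, 378 and 392 CPM at 8 h and 194, 194 and 205 against 295, 281 and 249 CPM at 24 h. It was higher at both times without overlap, and less so at 24 h (0.88 ± 0.05 and 0.48 ± 0.05, difference -0.41 ± 0.08, adjusted p = 0.0032, and 0.113 without both libraries with POSTN). TIPARP, another gene of that receptor, rose by 0.44 ± 0.06 and 0.56 ± 0.06, with no called difference (adjusted p = 0.65).

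Among the late genes that fell, MTHFD1L, the mitochondrial enzyme that makes formate from folate units, had the smallest adjusted p of the difference. It read 40.7, 39.1 and 42.9 CPM in DMSO and 37.6, 36.1 and 36.9 CPM with SHP1705 at 8 h, and 47.3, 44.6 and 44.4 against 19.5, 19.98 and 19.8 CPM at 24 h. The SHP1705 libraries of 24 h lay close together and far below every other library. The effect was -0.15 ± 0.05 at 8 h, not called, and -1.20 ± 0.06 at 24 h (difference -1.05 ± 0.08, adjusted p = 1.2e-10). GNPDA1, which turns glucosamine 6-phosphate into fructose 6-phosphate, read 53.2, 51.2 and 54.9 against 48.0, 50.7 and 49.3 CPM at 8 h and 40.5, 43.4 and 47.0 against 22.0, 22.6 and 24.3 CPM at 24 h (difference -0.82 ± 0.08, adjusted p = 5.6e-08). Both differences were also called with all 36 libraries in the fit, where 4 genes in all were called.

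Other late genes that fell were HAGHL, a relative of the glyoxalase enzymes (-0.40 ± 0.12 and -1.50 ± 0.11, difference adjusted p = 0.00020), CENPV, a centromere protein (-0.04 ± 0.16 and -1.45 ± 0.20, adjusted p = 0.0024) and PLD6, a phospholipase of the mitochondrial surface (-0.37 ± 0.11 and -1.16 ± 0.12, adjusted p = 0.0095). HAGHL lay at the threshold at 8 h (adjusted p = 0.050). Without both libraries with POSTN the difference of PLD6 was lost (adjusted p = 0.157) and those of HAGHL and CENPV were not. LSS, lanosterol synthase of the cholesterol pathway, went from -0.07 ± 0.04 to -0.45 ± 0.04 (adjusted p = 0.00065), SLC30A1, a zinc exporter, from 0.01 ± 0.04 to -0.34 ± 0.05 (adjusted p = 0.0023), and CDK4, the G1 kinase, from -0.08 ± 0.05 to -0.48 ± 0.06 (adjusted p = 0.0052). TXNDC5, an oxidoreductase of the endoplasmic reticulum, had the largest negative estimate of the late genes (-2.36 ± 0.54, adjusted p = 0.021) with libraries from 9.73 to 26.1 CPM at 8 h and 0.624 to 5.50 CPM at 24 h, and that call was lost (adjusted p 0.0553 to 0.108) without DMSO replicate 1 or SHP1705 replicate 2 or 3 at 24 h.

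The E-box letters CACGTG were also counted in the promoters of the classes. They lay within 250 bases before a listed start in 29 of 81 late genes that fell (35.8%) and 4 of 48 that rose (8.33%), and in 15 of 60 lasting genes that fell (25.0%) and 16 of 88 that rose (18.2%), beside 10.7% of all. The shorter letters NCGTG, searched on both strands, match within every CACGTG, so each gene with CACGTG counts here too. They lay in 92.6% of late genes that fell and 79.4% of all. No test was made of these shares, and a match is not a bound site. Shown are 3 genes with a called difference and 1 copy each, as above: BLOC1S3 (chr19:45178534-45178783, plus strand, 87 bases before the start), MTHFD1L (chr6:150866236-150866485, plus strand, 154 bases before 1 of its listed starts) and GNPDA1 (chr5:142013028-142013277, minus strand, 31 bases). RefSeq lists 4 starts for MTHFD1L, of which 2 have the letters in their window, and the window shown lies inside the extent of the gene (from 150865702 on chromosome 6).
BLOC1S3: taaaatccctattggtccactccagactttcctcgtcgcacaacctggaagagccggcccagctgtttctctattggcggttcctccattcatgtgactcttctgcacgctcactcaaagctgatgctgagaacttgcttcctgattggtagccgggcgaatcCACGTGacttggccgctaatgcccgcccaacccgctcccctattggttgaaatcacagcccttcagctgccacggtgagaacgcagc
MTHFD1L: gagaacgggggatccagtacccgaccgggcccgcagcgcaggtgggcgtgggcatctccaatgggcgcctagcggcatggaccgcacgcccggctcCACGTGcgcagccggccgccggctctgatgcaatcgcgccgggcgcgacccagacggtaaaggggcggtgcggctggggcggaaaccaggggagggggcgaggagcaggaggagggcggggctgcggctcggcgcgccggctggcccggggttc
GNPDA1: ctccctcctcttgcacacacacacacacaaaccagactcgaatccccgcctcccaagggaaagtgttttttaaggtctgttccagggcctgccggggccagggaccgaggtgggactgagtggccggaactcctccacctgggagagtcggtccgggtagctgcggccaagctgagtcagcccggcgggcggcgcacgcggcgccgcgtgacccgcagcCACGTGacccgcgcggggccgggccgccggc

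Among the late genes that rose were genes of glycolysis and the hypoxia response. Of the 32 genes of that list, all tested, 5 were higher at 8 h (1.66% of all genes) and 18 at 24 h (3.18%), with 0 lower at either time, and 8 had a positive difference (0.483%). The median effect was 0.04 at 8 h and 0.16 at 24 h. Without the libraries with POSTN, 2 were higher at 8 h, 18 at 24 h and 2 had a called difference. The 8 were CA9, PGK1, TPI1, ENO1, PGAM1, BNIP3, BNIP3L and NDRG1.

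CA9, the cell-surface carbonic anhydrase that hypoxia induces, read 18.5, 21.1 and 18.02 CPM in DMSO and 19.1, 19.7 and 20.9 CPM with SHP1705 at 8 h, and 15.4, 14.2 and 15.5 against 26.6, 27.0 and 26.0 CPM at 24 h. The groups overlapped at 8 h and stood apart at 24 h (0.05 ± 0.08 and 0.82 ± 0.09, difference 0.77 ± 0.12, adjusted p = 0.00044). The enzymes moved less: PGK1 went from 0.01 ± 0.03 to 0.29 ± 0.03 (adjusted p of the difference 0.00065), TPI1 from -0.05 ± 0.03 to 0.19 ± 0.03 (0.0028) and ENO1 from -0.07 ± 0.03 to 0.16 ± 0.03 (0.0027). BNIP3, a mitophagy receptor, went from 0.09 ± 0.04 to 0.42 ± 0.05 (adjusted p = 0.0032). The differences of TPI1, ENO1 and BNIP3 were lost without both libraries with POSTN, and those of CA9 and PGK1 were not.

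Further late genes that rose were the following. RARRES2, the chemoattractant chemerin, had effects of -0.21 ± 0.10 and 0.57 ± 0.10 (difference 0.79 ± 0.14, adjusted p = 0.0023), CST1, a cystatin, -0.22 ± 0.10 and 0.47 ± 0.10 (adjusted p = 0.0081), and PTGES, prostaglandin E synthase, 0.13 ± 0.05 and 0.56 ± 0.05 (adjusted p = 0.00085). TGFBI, a matrix protein, went from 0.10 ± 0.04 to 0.42 ± 0.04 and ANKRD1, a target of YAP, from 0.05 ± 0.04 to 0.35 ± 0.04 (adjusted p = 0.0036 and 0.0032). Of the 24 genes for the epithelial-mesenchymal transition and invasion that passed the filter, 3 were higher and 1 lower at 8 h (1.66% and 1.62% of all genes), 10 were higher and 0 lower at 24 h (3.18% and 3.69%), and 4 had a positive difference (0.483%), or 2 without both libraries with POSTN. GLRX, a glutaredoxin, rose late too (0.35 ± 0.07 at 24 h, difference 0.53 ± 0.10, adjusted p = 0.0035). Of these differences, those of CST1, PTGES, TGFBI, ANKRD1 and GLRX were lost without both libraries with POSTN and that of RARRES2 was not.

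**Figure D3:**
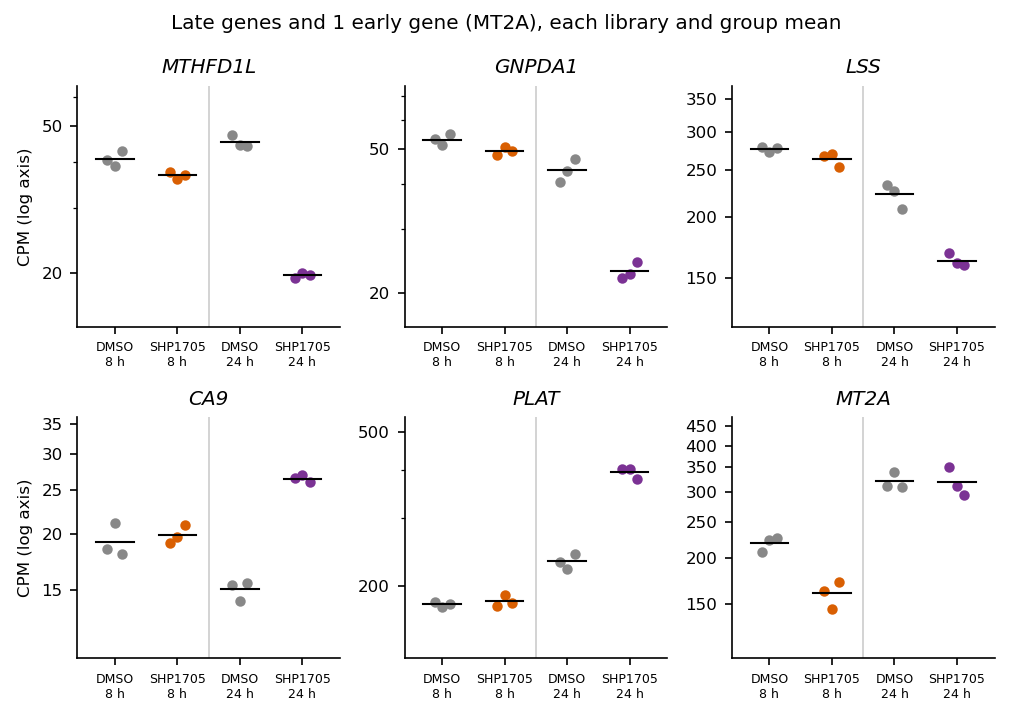
Level of 5 late genes and of MT2A, an early gene, in CPM (log axis, own scale per gene) in the 3 libraries of each group, with the group mean as a bar. MTHFD1L, GNPDA1 and LSS are lower and CA9 and PLAT higher with SHP1705 at 24 h, while MT2A is lower at 8 h and overlaps at 24 h.

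Genes of ribosome building and DNA replication were called mostly at 24 h. Of 27 ribosome biogenesis genes, 4 were lower at 8 h (1.62% of all genes) and 13 at 24 h (3.69%), with 0 higher and 1 called difference, BOP1, a factor for the large subunit (-0.16 ± 0.05 and -0.54 ± 0.06, adjusted p = 0.0085, and 0.218 without both libraries with POSTN). RRP9, a snoRNP protein, had effects of -0.24 ± 0.06 and -0.54 ± 0.06, with its 8 h call lost without DMSO replicate 1 or 2 or SHP1705 replicate 2 or 3 (adjusted p 0.0546 to 0.118), and NCL, nucleolin, -0.10 ± 0.03 and -0.26 ± 0.03. Of 30 DNA replication genes, 0 were called at 8 h and 10 were lower at 24 h, with thymidylate synthase (TYMS) at -0.05 ± 0.07 and then -0.43 ± 0.09. In that list 1 difference was called, CDC45, a subunit of the replicative helicase (-0.32 ± 0.07, adjusted p = 0.025), and it was lost on leaving out any 1 library except DMSO replicate 1 at 8 h and SHP1705 replicate 1 at 24 h (adjusted p 0.0542 to 0.132). The median effects went from -0.10 to -0.15 in ribosome biogenesis and from -0.04 to -0.13 in DNA replication, and without both libraries with POSTN the lists held 12 and 8 lower genes at 24 h.

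**Figure D4:**
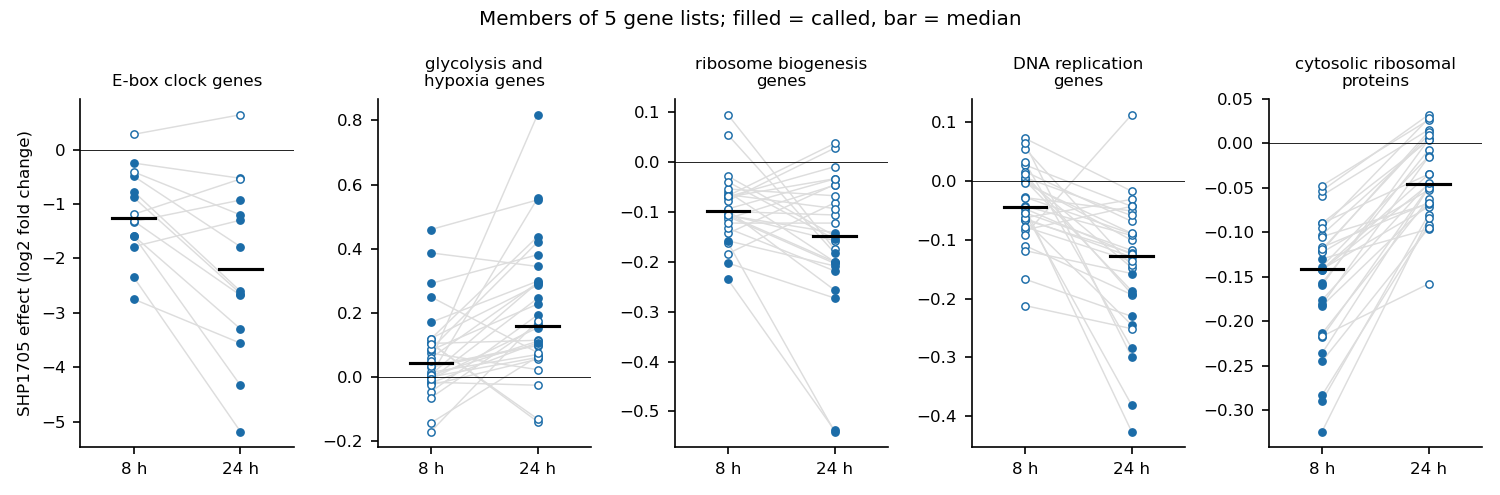
SHP1705 effect (log2 fold change, own scale per panel) of each tested member of 5 gene lists at 8 h and 24 h, joined by lines; filled circles are called, bars are medians, and ANKRD37, with 1 count in the 6 libraries of 24 h, is not drawn. Ribosomal protein genes are filled at 8 h only, and glycolysis and DNA replication genes mostly at 24 h.

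The early genes were few and their effects small, between 0.13 and 0.45 in size at 8 h. MT2A, a metal-binding metallothionein, read 208, 223 and 225 CPM in DMSO and 163, 146 and 173 CPM with SHP1705 at 8 h, and 311, 340 and 310 against 350, 311 and 295 CPM at 24 h. The groups were apart at 8 h and overlapped at 24 h (-0.45 ± 0.07 and -0.01 ± 0.07, difference 0.44 ± 0.09, adjusted p = 0.011). G0S2, an inhibitor of fat breakdown, went from -0.40 ± 0.04 to -0.09 ± 0.04 (adjusted p = 0.0028), and TMSB10, an actin-binding thymosin, from -0.30 ± 0.05 to -0.01 ± 0.05 (adjusted p = 0.021, lost without DMSO replicate 2 or SHP1705 replicate 2 at 8 h, adjusted p 0.0531 to 0.0688). Of those that rose early, PALLD, an actin-bundling protein, went from 0.27 ± 0.04 to -0.04 ± 0.05 (adjusted p = 0.0081) and ADAR, the RNA-editing deaminase, from 0.22 ± 0.04 to -0.12 ± 0.05 (adjusted p = 0.0032). All of these differences were lost without both libraries with POSTN. SEC61G, a translocon subunit, was lower at 8 h (-0.22 ± 0.06) and higher at 24 h (0.22 ± 0.06, difference adjusted p = 0.0028). Its 8 h call was lost without any 1 library of that time except DMSO replicate 3 (adjusted p 0.0504 to 0.143), its 24 h call without DMSO replicate 2 or SHP1705 replicate 1 of that time (0.0576 to 0.111), and its difference without both libraries with POSTN.

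The ribosomal protein genes of a fixed list were called at 8 h only, without a called difference between the times. RPSA, a ribosomal protein gene outside that list, was an early gene (-0.16 at 8 h and 0.02 at 24 h, difference 0.18, adjusted p = 0.042). Of the 30 cytosolic ribosomal protein genes listed, 16 were lower at 8 h (1.62% of all genes) and 0 were called at 24 h. None of their differences passed, though all 30 estimates were positive, beside 8842 of the 17793 genes tested. The median was -0.14 at 8 h and -0.05 at 24 h, and RPS19 went from -0.25 ± 0.04 to -0.10 ± 0.04 and RPL14 from -0.16 ± 0.03 to -0.01 ± 0.03 (adjusted p of the difference 0.26 and 0.13). Without the libraries with POSTN, 3 were lower at 8 h.

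Transcript length moved with these effects at 8 h. Of 10719 genes with at least 5 CPM, 10201 (95.2%) had a protein-coding transcript length in GENCODE release 29, and were split into 5 equal parts. At 8 h the median effect ran from -0.03 in the shortest part (207 to 882 nt) to 0.06 in the longest (3530 to 27174 nt), and at 24 h it was 0.00 in both. The longest part exceeded the shortest by 0.0882, 0.0898 and 0.0749 in the 3 SHP1705 libraries of 8 h, measured against the mean of the DMSO libraries, and by 0.0030, -0.0189 and 0.0191 in the DMSO libraries, each against the other two. At 24 h the SHP1705 libraries gave 0.0019, 0.0308 and -0.0210. The 15 early genes that were lower had a median length of 721 nt, 10 of them (66.7%) in the shortest part, and the ribosomal protein genes a median of 767 nt. The median difference, 24 h minus 8 h, ran from 0.04 in the shortest part to -0.06 in the longest. Lasting genes had a median length of 2512 nt where higher and 1524 nt where lower, beside 1824.5 nt for all genes with a length. The part of transcript length in the differences, in the early and lasting classes and in the ribosomal protein genes was not tested.

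**Figure D5:**
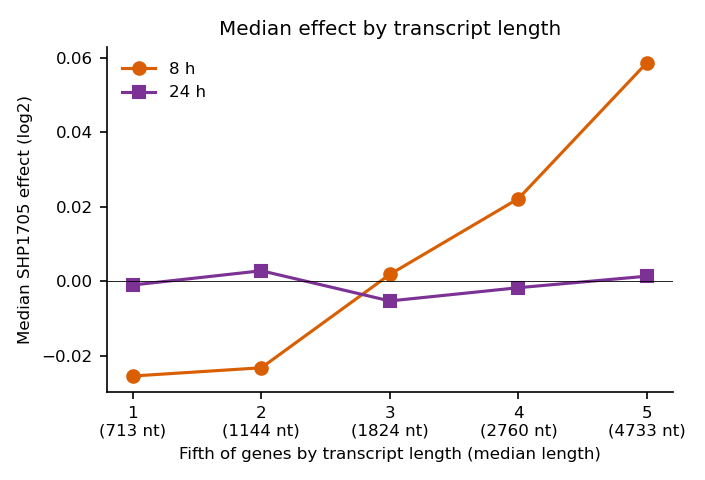
Median SHP1705 effect (log2) of genes with at least 5 CPM in 5 equal parts by transcript length, at 8 h (orange) and 24 h (purple); the x axis gives the median length of each part in nt. The 8 h medians rise from -0.03 to 0.06 and the 24 h medians stay near 0.00.

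The same 2 sets hold cells given a proteasome inhibitor with and without SHP1705. These 12 libraries entered the fit, its filter, scaling and spread, but not the contrasts above. There the effect of SHP1705 beside the inhibitor was again taken at 24 h (carfilzomib, 10 nM) minus 8 h (MG132, 100 nM), so drug, time and set changed together. Far more genes differed, 3528 with a positive difference (19.8%) and 3851 with a negative one (21.6%), and the members are read against that. Of the 128 genes with a negative difference without inhibitor, 77 (60.2%) were negative with it, beside 50.9% of all genes, and of the 86 positive ones 51 (59.3%) were positive, beside 49.1%. Among the 128, 51 were called negative and 31 positive, and among the 86, 35 were called positive and 21 negative. Of the early genes, 9 of the 15 lower at 8 h had a negative difference here. Of the 6 higher at 8 h, 5 had a positive one, so most went against their sign without inhibitor. Several clock genes had the same sign as without inhibitor: PER3 differed by -3.17 ± 0.21, PER1 by -2.21 ± 0.29, CRY1 by -1.12 ± 0.10, CRY2 by -2.45 ± 0.17 and ARNTL by 1.52 ± 0.15, all called. Others did not: NR1D2 differed by -1.12 ± 0.11 and NR1D1 by -0.88 ± 0.34, both called and both against positive values that did not pass without inhibitor, while BHLHE41 (0.04 ± 0.20) and SIRT1 (0.13 ± 0.10) were not called. The same sign as without inhibitor was also seen for MTHFD1L (-1.47 ± 0.08), GNPDA1 (-0.61 ± 0.08), CAMKK1 (-1.72 ± 0.17) and BLOC1S3 (-1.26 ± 0.13), all called. CA9 differed by 0.28 ± 0.13 and was not called (adjusted p = 0.080), TPI1, ENO1 and BNIP3 were not called either, and PGK1 differed by -0.34 ± 0.05, against its sign without inhibitor. Called differences against that sign were also seen for ANKRD1 (-0.78 ± 0.055), GLRX (-0.41 ± 0.10), TGFBI (-0.25 ± 0.06), CYP1B1 (0.52 ± 0.08) and LSS (0.16 ± 0.06). At 8 h beside MG132 the effect itself had the opposite sign to that without inhibitor in several named genes. It was positive for CRY2 (0.97 ± 0.11), MTHFD1L (0.42 ± 0.05), OSGIN1 (1.83 ± 0.07) and CCN2 (0.60 ± 0.05), all negative without inhibitor. CAMKK1 (0.27 ± 0.12) and BLOC1S3 (0.11 ± 0.09) turned too, without a call. PLAU (-1.80 ± 0.04), NPAS2 (-0.77 ± 0.05) and PDE7B (-2.83 ± 0.11) were negative there and positive without inhibitor. Other genes kept their sign at 8 h, among them PER1, PER3, CRY1, TEF and ARNTL. A difference of the same sign can thus hold another 8 h effect.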

How the data were processed

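The authors deposited 3 tables of raw counts per gene, 1 for each set, and the count is the unit used throughout. Per the submitters' processing notes, the tools were Trimmomatic, FastQC, HISAT2 and featureCounts with hg38; their versions, the annotation and the use of strand were not given in the sources used here. Overlapping genes and antisense pairs may therefore share reads. From the counts, 24 libraries (the MG132 set at 8 h and the carfilzomib set at 24 h, 8 groups of 3) were fitted in 1 model with edgeR 4.0.16 in R 4.3.3: low counts removed with filterByExpr, TMM scaling, prior count 0.125, quasi-likelihood F-tests of the effect at 8 h, at 24 h and of their difference, with Benjamini-Hochberg adjustment over all genes tested and a threshold of 0.05. Standard errors come from the fold change and the F statistic. Depth was 18900000 to 38700000 counts per library, and counting error is large for genes with few counts, such as PER2, CIART, USP2, HLF and, at 24 h, POSTN.

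Genes named are those of the clock lists, up to 10 genes per class and direction with at least 5 CPM and the largest effects, up to 4 members of other lists by the p of the difference, and markers; a few were added for their role. The members and lists were chosen with earlier results of these data known. Promoters come from RefSeq on GRCh38.p14 (250 bases before the start) and lengths from GENCODE release 29. Alternatives were other scaling, no filter, other sets of libraries, a replicate block, leaving out libraries, limma 3.58.1 (voom) and DESeq2 1.42.0. The fit was also run on simulated counts drawn with the same spread per gene in both sets. That run cannot examine the unequal spread of the real sets. Results of some genes are not reported here. Figures were drawn with matplotlib 3.10.9.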

Additional observations from a re-analysis of the deposited data

Results flagged for a closer look

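The results listed here are the named genes whose SHP1705 effect differed between the times by the test of the difference itself (edgeR's quasi-likelihood test, Benjamini-Hochberg adjusted p under 0.05). Values are the log2 effect at 24 h minus the log2 effect at 8 h, and time and set cannot be told apart. Among the clock genes and their regulators the differences were PER1 -1.77, PER2 -2.84, PER3 -2.74, CRY1 -1.83, CRY2 -1.29, BHLHE41 -0.79, SIRT1 -0.37 and ARNTL 0.68. Among the other lasting genes they were CAMKK1 -1.54, BLOC1S3 -1.26, OSGIN1 -0.79, PPL -0.71, PLAU 0.42 and CYP1B1 -0.41. Among late genes that fell they were HAGHL -1.10, CENPV -1.40, MTHFD1L -1.05, GNPDA1 -0.82, PLD6 -0.79, TXNDC5 -2.36, CDK4 -0.40, CDC45 -0.32, BOP1 -0.38, LSS -0.38 and SLC30A1 -0.36. Among late genes that rose they were PLAT 0.74, CA9 0.77, RARRES2 0.79, CST1 0.69, GLRX 0.53, PTGES 0.43, PGK1 0.29, TPI1 0.24, ENO1 0.23, BNIP3 0.33, TGFBI 0.33 and ANKRD1 0.30. Among early genes and SEC61G they were MT2A 0.44, G0S2 0.31, TMSB10 0.29, ADAR -0.34, PALLD -0.31 and SEC61G 0.43.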

How the results depend on the processing

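The counts called, in the order 8 h, 24 h and difference, were 583, 1223 and 214. Leaving out 1 library gave ranges of 211 to 605, 784 to 1171 and 130 to 258, and of 94 to 171 lasting, 6 to 20 early, 94 to 202 late and 0 to 1 opposite genes. Lasting genes fell to 94 to 122 without any 1 library of 8 h, late genes to 101, 100, 94 and 101 without DMSO replicate 1 or SHP1705 replicate 3 at 8 h or DMSO replicate 1 or SHP1705 replicate 3 at 24 h, and early genes to 12, 9, 6 and 11 without DMSO replicate 1 or 2 or SHP1705 replicate 2 at 8 h or DMSO replicate 3 at 24 h. With relative log expression factors the opposite genes numbered 3. With no filter on low counts the difference counted 393 (220 positive and 173 negative, against 86 and 128), early genes 97 and opposite genes 13. With only the 12 libraries, 950 genes were called at 8 h and 394 in the difference (213 positive, 181 negative), with 289 lasting, 80 early, 248 late and 9 opposite. With all 36 libraries the counts were 0, 179 and 4, with 0 lasting, 0 early, 4 late and 0 opposite. With the carfilzomib set at 8 h they were 2448, 179 and 512, with 12 lasting, 346 early, 85 late and 9 opposite. Without both libraries with POSTN, 57 were called at 8 h and 44 in the difference, with 27 lasting, 2 early, 36 late and 0 opposite. With each set fitted alone, 1249 and 722 were called at 8 h and 24 h, with 34 early and 3 opposite. limma voom, added after seeing the data like the separate fits, called 1315 at 8 h, with 34 early and 4 opposite. DESeq2 called 967 at 8 h and 388 in the difference (183 positive, 205 negative), with 299 lasting, 66 early, 253 late and 7 opposite. The causes were not tested.

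With the carfilzomib set at 8 h, whose labels the clock genes went against, the direction of the 8 h effect turned for these genes, with log2 values of ANKRD1 -0.41, ARNTL -0.34, BHLHE40 0.27, CDC45 -0.28, CRY1 0.11, DBP 1.57, G0S2 0.88, MT2A 0.011, NEDD9 -0.20, NR1D1 0.28, NR1D2 0.36, PALLD -0.35, PER1 0.11, PER2 0.52, PER3 0.84, PGK1 -0.32, POSTN -1.91, PPL 0.88, RRP9 0.12, TEF 2.004 and TIPARP -0.21. The difference turned for CYP1B1 0.086, G0S2 -0.97, MT2A -0.015, NEDD9 0.77, NR1D1 -1.58, PALLD 0.32, PLAU -0.66 and PTGES -0.089. Of the 132 called results of named genes, 35 kept their call with all 36 libraries, 94 without both libraries with POSTN and 127 with DESeq2.

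Same-numbered DMSO and SHP1705 libraries did not deviate together at 8 h (r of -0.0078, -0.061 and 0.0095, beside -0.043 to 0.050 for different numbers). At 24 h the same-numbered values were 0.112, 0.053 and 0.0033, beside -0.099 to 0.044 for different numbers. The correlations were small at both times, and the numbers were not taken as a pairing. The fit with the replicate block called 603, 1216 and 201 genes, with 179 lasting, 21 early, 146 late and 1 opposite, and of the 132 called results of named genes it lost 1, the difference of BHLHE41 (adjusted p = 0.054).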

Other observations

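Counts are given for 4 other fixed lists, to be read against the shares of all tested genes called higher and lower, which were 1.66% and 1.62% at 8 h and 3.18% and 3.69% at 24 h, and against the 0.483% with a positive and 0.719% with a negative difference. Of 22 endoplasmic reticulum chaperone genes, 1 was higher at 8 h and 6 at 24 h, with 0 lower and 1 called difference, a positive one. Of 23 lysosome and autophagy genes, 0 were called at 8 h, 4 were higher and 1 lower at 24 h, and 3 had a positive and 1 a negative difference. Of 28 heat shock genes, 0 were called at 8 h, and 1 was higher and 5 lower at 24 h, with 0 called differences. Of 31 proteasome subunit genes, 2 were lower at 8 h and 1 at 24 h, with 0 called differences. Without both SHP1705 libraries with POSTN, which leaves 1 library in that group, no difference was called in any of these 4 lists.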
